A study of Mus musculus with 4 samples.

Results

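The lectin-like receptor genes of mouse chromosome 6 were followed in lamina-association maps of primary hepatocytes. The set holds every protein-coding gene of chromosome 6 in the mm9 annotation whose symbol begins with Klr or Clec, which gave 51 genes of 22367 protein-coding genes. No measured value was used to choose them. DamID was carried out on hepatocytes of *Tm7sf2*+/+ (WT) and *Tm7sf2*-/- (KO) mice on a C57BL/6 background, aged 12 to 16 weeks. *Tm7sf2*, also called NET47, encodes a sterol reductase of the nuclear envelope (NE) and the endoplasmic reticulum. The paper places its main pool in the endoplasmic reticulum in most cell types tested. The KO lacks the protein throughout the animal. A lentivirus, left on the cells for 24 h, delivered LaminB1-Dam, a DNA adenine methylase tied to the nuclear lamina, or Dam alone, which corrects for accessibility. DNA was taken 60 h after transduction by the paper's Methods, and within 60 h of cell isolation by its Results. There were 4 libraries, 1 of each construct per genotype, each from the pooled DNA of 4 mice. With 1 library pair per genotype no spread between animals can be given and no test between genotypes was made. The values below describe these lists. The WT libraries were sequenced more deeply than the KO libraries, and genotype and depth cannot be told apart.

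Natural killer (NK) cells read the surface of other cells through C-type lectin-like receptors, most of which are encoded side by side in a stretch of chromosome 6 known as the natural killer gene complex. Inhibitory and activating receptors share this stretch: the Ly49 receptors (*Klra* genes) bind MHC class I molecules, CD94 and NKG2 receptors (*Klrd1*, *Klrc* and *Klrk1* genes) bind nonclassical or stress-induced ligands, and the Nkrp1 receptors (*Klrb* genes) bind Clr proteins, encoded by *Clec2* genes that lie between them. Receptors of myeloid cells, such as dectin-1 and dectin-2, are encoded on the same chromosome. Most of these genes are typical of lymphocytes, dendritic cells, macrophages and platelets. Hepatocytes are not known for expressing most of them, and no expression was measured in the lists used here.

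A lamina-associated domain (LAD) is a stretch in which the LaminB1-Dam signal exceeded that of Dam alone. Each gene was classed by its span, following the study's terms: PI genes overlapped by at least 1 base a differential region (DR) found in LADs of WT only, IP genes a DR found in LADs of KO only, and AMB genes both. PP genes overlapped a LAD in both genotypes and no DR, and the rest were II. Of the 51 lectin genes, 33 were PP, 10 II, 3 PI, 2 IP and 3 AMB. Over all protein-coding genes, PP genes made up 17.9%, II genes 56.6%, PI genes 5.43%, IP genes 17.1% and AMB genes 2.96%. The lectin genes thus held PP genes at 64.7%, well above that background, IP genes at 3.92%, below it, and PI genes at 5.88%, close to it. Genes wholly in WT LADs cannot be IP. These were 33 of the 51 lectin genes and 4423 of all 22367 genes. Only genes that overlap a WT LAD can be PI. A WT LAD overlapped 39 of the 51 lectin genes and 6805 of all 22367 genes. The PI shares, close over all genes, thus rest on unlike shares of eligible genes. The other 1120 genes of chromosome 6 had 21.3% PP, 21.2% IP and 5% PI genes. Neighbouring genes share LADs and are not independent of each other, so these shares were not tested.

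**Figure D1:**
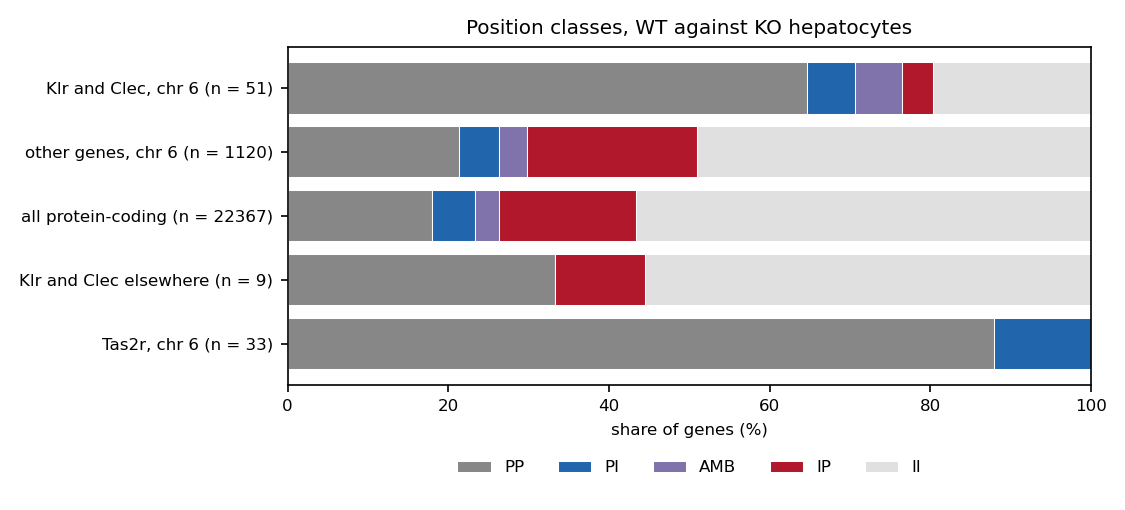
Bars give the share of genes in each position class (percent, x axis) for 5 sets of genes, with the number of genes beside each name. PP, at the NE in both genotypes; PI, lost from LADs in KO; IP, gained in KO; AMB, both; II, none of these. The lectin genes of chromosome 6 had 33 PP genes of 51, and the Tas2r genes 29 of 33.

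The 51 genes fell into 5 blocks when neighbours up to 1 Mb apart were joined. The largest, around *Klrd1*, ran from 128559245 to 131197380 and held 37 of the genes. A block of 10 genes lay further toward the centromere, from 122220614 to 123239889, with *Klrg1* and the dectin-2 group. The other 4 genes, *Klrg2*, *Clec2l*, *Clec5a* and *Clec4f*, lay in 3 places between 38576660 and 83606181, outside the natural killer gene complex. The set name therefore fits the *Klrd1* block, and the other 14 genes share the symbol and the protein family. Among the 51 is *Klrb1-ps1*, which the annotation counts as protein-coding although its symbol marks a pseudogene. The annotation also lists *Klra11*, *Klra14*, *Clec2f-ps* and *Klra23* on chromosome 6 under other gene types, so they were not members.

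The LAD borders are given first, with the sequences at them. LADs were called from fragments cut at GATC, so a border falls on such a site by construction. The shortest LAD of each list was 10 kb, so these borders do not show how finely the locus is resolved. Dam methylates the adenine of GATC, and all 22 WT and all 36 KO borders of the LADs over the *Klrd1* block lay at a GATC site. The block's WT and KO receptor LADs both began between *Gabarapl1* and *Klre1*, 571 bp apart, at neighbouring GATC sites with 0 others between them. The windows below show 60 bases of the plus strand (NCBIM37) around each border, with GATC in capitals. The WT border is at chr6:129516845-129516904 and the KO border at chr6:129517416-129517475.
WT start of the receptor LAD: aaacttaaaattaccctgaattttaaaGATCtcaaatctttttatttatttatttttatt
KO start of the receptor LAD: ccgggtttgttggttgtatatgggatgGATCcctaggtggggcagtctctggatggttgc

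A second pair of starts, next to *Olr1*, which encodes the oxidized LDL receptor LOX-1, lay 28 bp apart on 2 consecutive GATC sites. Both fall in the 100 bases of chr6:129431808-129431907, where the first capitals mark the KO border and the second the WT border.
WT and KO starts of the LAD at Olr1: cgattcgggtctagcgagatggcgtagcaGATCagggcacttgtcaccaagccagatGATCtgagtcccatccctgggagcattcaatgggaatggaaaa

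The next windows show borders that lie inside a gene where the genotypes differed. The sites shown are the KO LAD end in an intron of *Klrb1* (chr6:128656929-128656988), the KO LAD start in an intron of *Clec2h* (chr6:128620211-128620270), and the start and end of a KO gap in *Klra4* (chr6:129995816-129995875 and chr6:130003898-130003957), all on the plus strand.
KO LAD end in Klrb1: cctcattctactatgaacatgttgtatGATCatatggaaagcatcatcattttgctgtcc
KO LAD start in Clec2h: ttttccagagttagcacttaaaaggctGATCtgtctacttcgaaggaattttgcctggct
KO gap start in Klra4: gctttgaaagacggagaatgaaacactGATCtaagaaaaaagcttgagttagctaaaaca
KO gap end in Klra4: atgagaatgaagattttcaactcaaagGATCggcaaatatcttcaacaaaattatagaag

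Of the 22 WT borders over the block, 6 had a KO border of the same kind within 1 kb, and the median distance was 3.52 kb. Over chromosome 6, 53 of 866 WT borders (6.12%) had one within 1 kb, with a median of 20.2 kb. Seen from the KO, 6 of 36 borders lay within 1 kb of a WT border, with a median of 20.55 kb, against 3.04% and 80.7 kb over the chromosome. KO LADs outnumbered WT LADs 1.64 to 1 over the block, against 2.01 to 1 over chromosome 6, where the lists held 872 and 433 LADs.

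The *Klrd1* block divided into a telomeric part covered by 1 long WT LAD and a centromeric part of short LADs. The block measured 2638 kb and was 81.3% in WT LADs and 77.4% in KO LADs, with 11 WT and 18 KO LADs over it. The telomeric part, from 129516875 to the end of *Klra2*, lay wholly in a WT LAD of 1714 kb. The split was set at the start of this LAD, the longest WT LAD over the block, so full WT cover follows from the split. KO-only bases were not possible in the telomeric part, and only WT-only bases could differ there. In the KO, 4 LADs covered 98.3% of the part. The centromeric part, from *Klrb1a* to the start of that LAD, was 48.5% in LADs in WT and 40.8% in KO, in 10 and 14 LADs with medians of 40.5 and 27.8 kb. Of the bases that were in a LAD of either genotype, 38.3% differed between the lists in the centromeric part and 1.71% in the telomeric part. The same share was 21.8% over chromosome 6 and 23.6% over chromosomes 1 to 19, X and Y. All 8 lectin genes that overlapped a DR were in the centromeric part, which holds 18 members, and the 19 members of the telomeric part were PP. Given the split, IP and AMB genes were not possible in the telomeric part. A gene there could be II only if it lay within a KO gap too short for a DR.

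**Figure D2:**
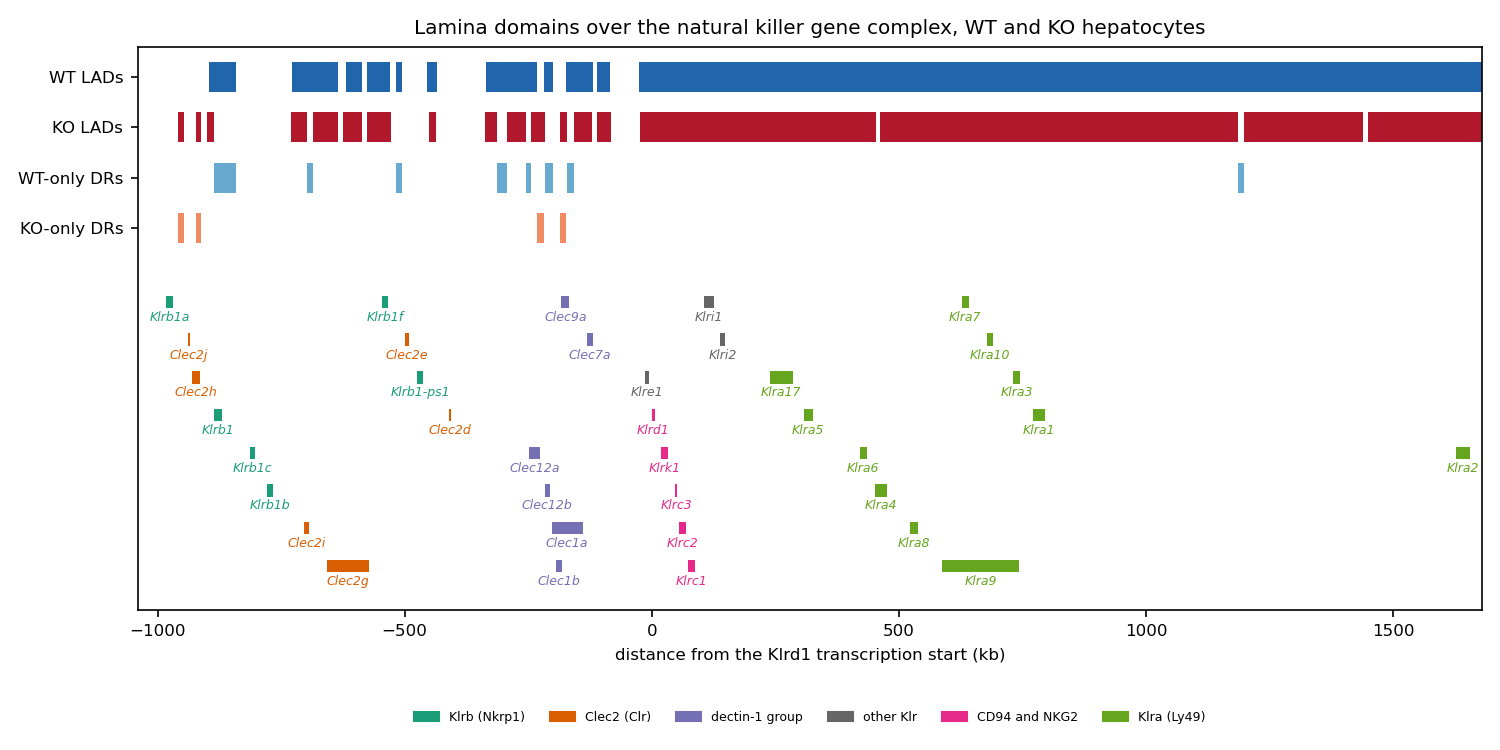
Map of the *Klrd1* block by distance from the *Klrd1* transcription start (kb, x axis), clipped near the block's ends. Rows show WT LADs, KO LADs, DRs of each kind and the 37 lectin genes colored by subfamily. One WT LAD of 1714 kb holds the CD94, NKG2 and Ly49 genes, and the DRs at genes lie to the left of it.

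The CD94 and NKG2 genes were at the NE in both lists. *Klrd1* encodes CD94, the shared partner of the NKG2 chains, and *Klrk1* encodes the activating receptor NKG2D. *Klrd1* (129541800 to 129548793), *Klrk1* (129560341 to 129573882), *Klrc3*, *Klrc2* and *Klrc1* had 100% of their spans in LADs of both genotypes. Their transcription starts and all exons were also in both lists. *Klre1*, *Klri1* and *Klri2*, whose products pair into further NK receptors, lie on either side of them and gave the same values. From *Klre1* to *Klri2*, 162.6 kb, 1 LAD of each genotype covered every base. The KO LAD over this stretch was 478.4 kb long, shorter than the WT LAD that contained it.

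All 11 protein-coding Ly49 genes were PP. In WT, 100% of the span of each was in the long LAD. In KO the share was 100% for 10 of them and 65.7% for *Klra4*, which encodes the activating receptor Ly49D. The 8.08 kb gap in *Klra4*, from 129995846 to 130003927, fell short of the 10 kb that the authors asked of a DR, so the gene was not PI. It took 1 of the 7 exons of *Klra4* out of the KO LADs, and the transcription start remained in LADs of both. *Klra8*, which encodes the cytomegalovirus receptor Ly49H, and *Klra1*, which encodes Ly49A, were wholly inside a KO LAD of 725.1 kb. *Klra2* (131169241 to 131197380) is set apart from the rest and lay in a KO LAD of 292.1 kb. *Klra9* is annotated over 157.1 kb and encloses *Klra7*, *Klra10* and part of *Klra3*, so the values of these genes rest on shared bases.

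The long WT LAD held 4 stretches without KO LAD. The 571 bp at its start and the *Klra4* gap have been described. A gap of 10.8 kb from 130728991 to 130739835 was the one deposited DR among them and overlapped 0 protein-coding genes. A gap of 9.235 kb from 130981843 to 130991077 was likewise free of genes.

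Receptor genes of this kind arose by duplication, and near-identical copies can share reads. The share of 50-base words that occur more than once in the genome was therefore counted. It was 26.8% in the telomeric part and 13.35% in the centromeric part, against 10.4% over chromosome 6. Among single genes it was highest in *Klrc2* (53.5%), *Klrc1* (48.3%) and *Klra10* (45.0%), and it was 4.55% in *Klrd1* and 0.698% in *Klre1*. In *Klra1* it was 4.54%. How reads with several matches were treated is not given in the sources used here, and the part of repeated words in the LAD calls was not tested.

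The Nkrp1 genes and their Clr ligand genes alternate along the centromeric end and differed from each other in position. Of the 6 *Klrb* genes, 4 were II, 1 was PI and 1 PP. *Klrb1c*, which encodes the antigen NK1.1, had 0% of its span in LADs of either genotype, and its transcription start was 38.6 kb from the nearest WT LAD and 73.0 kb from the nearest KO LAD. *Klrb1a*, *Klrb1b* and *Klrb1-ps1* also overlapped 0 LADs. *Klrb1f* (128995919 to 129007489) was wholly in LADs of both genotypes.

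*Klrb1* (128656526 to 128673064, minus strand) had the largest difference between genotypes in the share of its span in LADs among the 51 genes. In WT it lay wholly in a LAD of 54.8 kb, and in KO 2.62% of it remained, at its 3′ end. The WT-only DR of 43.7 kb, from 128656959 to 128700673, held its transcription start and 5 of its 6 exons. The nearest KO LAD was 16.1 kb from the start. The border sequence given above for *Klrb1* marks where the KO LAD stopped. The 150 bases upstream of the *Klrb1* start (chr6:128673065-128673214, minus strand, mm9) hold 0 GATC sites.
Upstream of Klrb1: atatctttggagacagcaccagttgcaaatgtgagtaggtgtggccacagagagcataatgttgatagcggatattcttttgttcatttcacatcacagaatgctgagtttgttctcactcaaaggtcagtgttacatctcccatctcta

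Among the 7 *Clec2* genes, 4 were II and *Clec2h*, *Clec2i* and *Clec2g* were IP, PI and PP. *Clec2h* (128612404 to 128627389) overlapped 0 WT LADs and had 47.7% of its span in a KO LAD of 10.2 kb, which was itself a KO-only DR and took in 4 of its 5 exons but not its start. *Clec2i* (128837606 to 128848185), which encodes a ligand of Nkrp1 receptors, was wholly in a WT LAD and had 67.1% of its span in a KO LAD. A WT-only DR of 11.5 kb, from 128844706 to 128856161, covered its 3′ part with 2 of 6 exons, and the start was in LADs of both genotypes. *Clec2g* overlapped 3 LADs in each list, with 70.9% of its 86.1 kb in WT LADs and 75.2% in KO LADs. Its WT and KO borders lay 0.224 to 4.43 kb apart, below the length asked of a DR.

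*Clec2d*, which encodes Clr-b, the broadly expressed ligand of an inhibitory Nkrp1 receptor, was II. It was 22.8 kb from the nearest WT LAD and 24.45 kb from the nearest KO LAD. *Clec2e* and *Clec2j* were II as well, at 4.715 and 38.8 kb from the nearest WT LAD and 28.6 and 6.722 kb from the nearest KO LAD. The fourth II gene, *Clec2l*, carries the *Clec2* symbol but lies outside the complex, next to *Klrg2*. Over the whole stretch from *Klrb1a* to *Clec2d*, LADs covered 45.4% of the bases in WT and 38.1% in KO.

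The dectin-1 group had 5 of its 6 genes overlapping a DR, 1 PI, 1 IP and 3 AMB. Over all protein-coding genes, 5.43% were PI, 17.1% IP and 2.96% AMB. The 5 genes share DRs, and none of the 6 kept such a class when DRs of at least 20 kb were asked for. The group is a run of myeloid and endothelial receptor genes from *Clec12a* to *Clec7a*, 130.1 kb long. LADs covered 68.7% of it in WT and 61.15% in KO, with 3 LADs in each list. Of its LAD bases, 55.0% belonged to one list alone. The number of LADs was thus the same and their places differed, with WT-only and KO-only DRs in turn along the run.

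**Figure D3:**
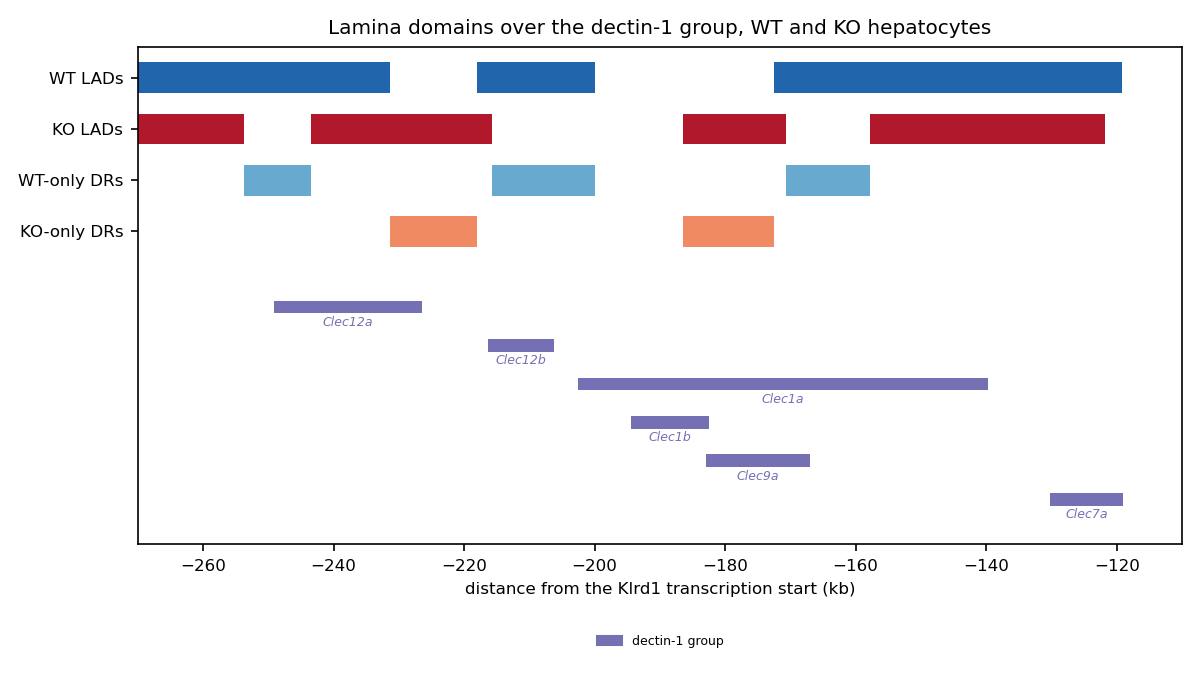
Map of the dectin-1 group by distance from the *Klrd1* transcription start (kb, x axis). Rows show WT LADs, KO LADs, DRs of each kind and the 6 genes. WT-only and KO-only DRs alternate, and *Clec1a* spans 2 WT-only DRs and 1 KO-only DR.

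*Clec12a* (129292709 to 129315321), an inhibitory receptor of myeloid cells, was AMB, and LADs held 78.7% of its span in WT and 75.05% in KO. A WT-only DR of 10.2 kb covered 24.95% of it, its annotated start included, and a KO-only DR of 13.2 kb covered 21.3% at the other end. Of its 6 exons, 5 overlapped LADs of both genotypes and 1 a KO LAD alone. These exons belong to the transcript with the most exonic bases, which begins downstream at 129300262, in LADs of both genotypes. *Clec12b* (129325533 to 129335521), another inhibitory receptor, was PI. It lay wholly in a WT LAD of 18.2 kb, had 4.94% of its span in a KO LAD, and had its start and 5 of 6 exons in the WT-only DR of 15.9 kb. The upstream 150 bases of *Clec12b* (chr6:129335522-129335671, minus strand) also hold 0 GATC sites, whereas those of *Clec12a* (chr6:129292559-129292708, plus strand) hold 2, shown in capitals. Of all 22367 protein-coding genes, 25.1% have GATC in this window, and of the lectin genes 10 of 51 do. GATC reads the same on both strands.
Upstream of Clec12b: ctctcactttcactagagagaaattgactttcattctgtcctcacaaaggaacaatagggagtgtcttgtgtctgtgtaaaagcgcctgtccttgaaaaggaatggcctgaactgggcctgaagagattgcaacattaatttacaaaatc
Upstream of Clec12a: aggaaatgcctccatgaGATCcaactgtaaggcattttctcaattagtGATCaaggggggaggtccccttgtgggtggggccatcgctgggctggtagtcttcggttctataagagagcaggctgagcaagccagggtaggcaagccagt

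*Clec1a*, *Clec1b* and *Clec9a* overlap each other, with *Clec1a* on the minus strand across the other two, so the same DRs count for more than 1 of them. *Clec1b* (129347315 to 129359353) encodes CLEC-2, the platelet receptor for podoplanin. It overlapped 0 WT LADs and had 33.5% of its span in a KO LAD of 15.8 kb, at its 3′ end and with 1 of 6 exons. *Clec9a* (129358880 to 129374780) encodes DNGR-1, with which dendritic cells sense dead cells. Its share in LADs was 34.9% in WT and 77.1% in KO, and it was AMB, with 65.1% in a KO-only DR and 22.9% in a WT-only DR. It was the one lectin gene whose transcription start was in a KO LAD alone, 10.35 kb from the nearest WT LAD.

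*Clec1a* (129339308 to 129402018) was AMB, with 24.6% of its span in WT-only DRs and 22.2% in a KO-only DR, and shares in LADs of 56.45% in WT and 54.05% in KO. Its start was in LADs of both genotypes, 3 of its exons were in both lists and 3 in WT LADs alone. *Clec7a* (129411611 to 129422790) encodes dectin-1, the receptor for fungal beta-glucan, and was the PP gene of the group. LADs held 98.4% of its span in WT and 75.0% in KO, and the KO LAD ended 2.61 kb before the WT LAD. The transcription start of *Clec7a* was just outside the LADs, by 0.179 kb in WT and 2.79 kb in KO.

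**Figure D4:**
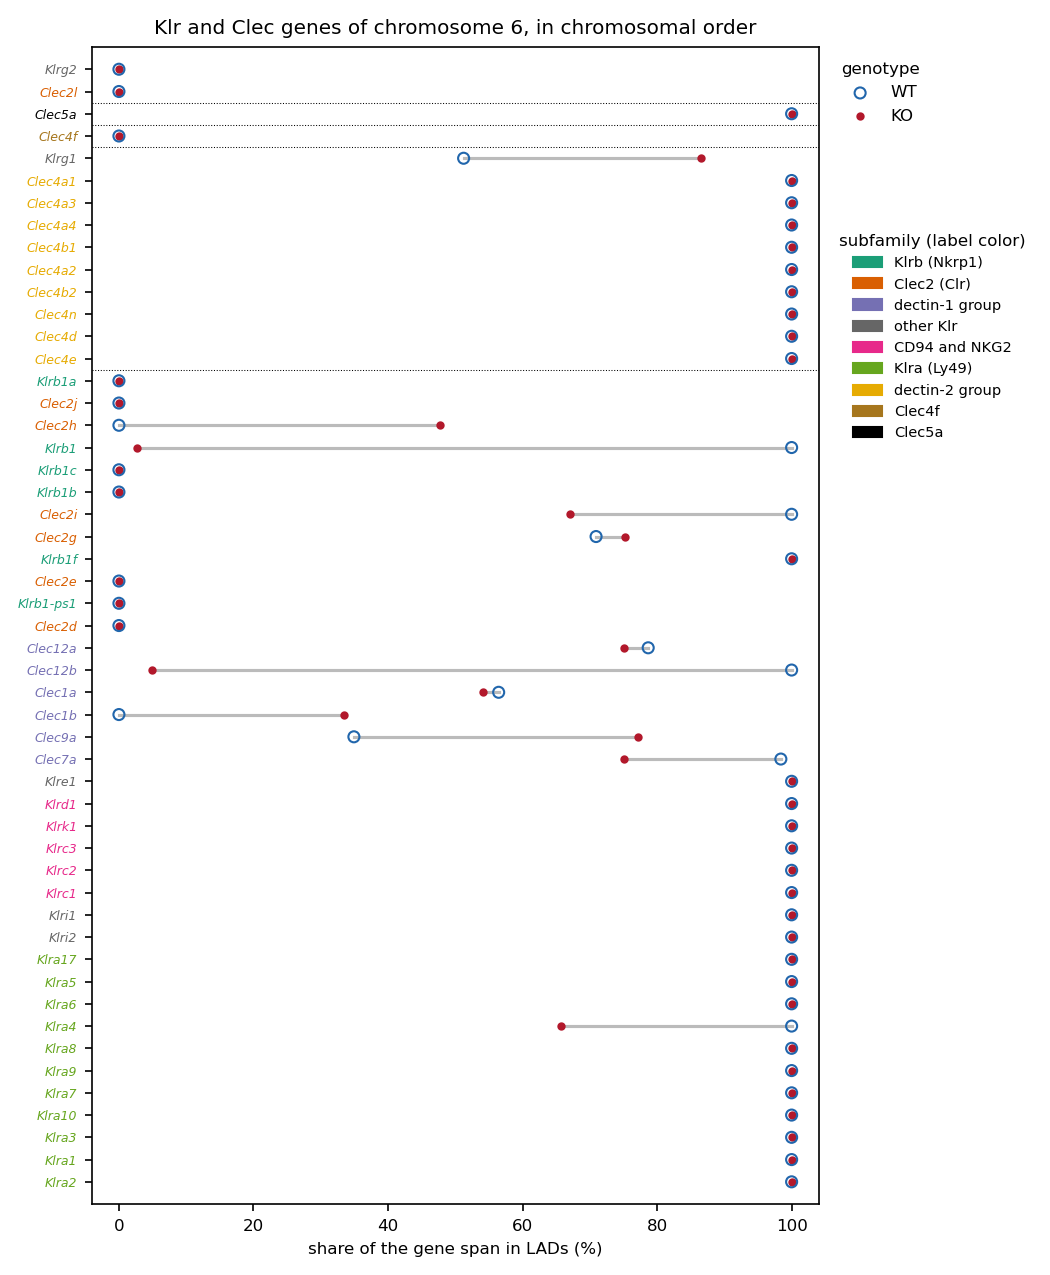
Share of each gene's span in LADs (percent, x axis) for the 51 lectin genes in chromosomal order. Open circles are WT, filled points KO, 1 library pair each, and dotted lines separate the 5 blocks. In the *Klrd1* block the 2 genotypes part at *Klrb1*, at *Clec2h*, *Clec2i* and *Clec2g*, at the 6 dectin-1 group genes and at *Klra4*, and coincide at the other genes.

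The dectin-2 group resembled the Ly49 genes in position. It holds 9 myeloid receptor genes, among them *Clec4n*, which encodes dectin-2, *Clec4e*, which encodes Mincle, and *Clec4d*, its partner. All 9 genes had 100% of their spans, transcription starts and exons in LADs of both genotypes. From *Clec4a1* to *Clec4e* (122871866 to 123239889), 368.0 kb, 1 WT LAD of 1482 kb and 1 KO LAD of 521.3 kb covered every base. Over its full length, 94.6% of that WT LAD was in KO LADs, of which there were 7. Repeated 50-base words ranged from 0.485% in *Clec4e* to 41.0% in *Clec4a3*.

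*Klrg1*, an inhibitory receptor of NK and T cells, lies apart from this group (122220614 to 122232900) and was PP. Its share was 51.2% in a WT LAD of 13.5 kb and 86.6% in a KO LAD of 19.2 kb that contained the WT LAD. Its start was in neither, at 5.99 kb from the WT LAD and 1.65 kb from the KO LAD.

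The 4 genes elsewhere on the chromosome had the same state in both lists. *Clec5a* (40524897 to 40535804), an activating receptor of myeloid cells, was wholly in LADs of both genotypes, of 539.1 kb in WT and 125.0 kb in KO. *Clec4f* (83594536 to 83606181), the lectin that marks Kupffer cells, the macrophages of the liver, overlapped 0 LADs. Its span was 948.2 kb from the nearest WT LAD and 166.3 kb from the nearest KO LAD. *Klrg2* and *Clec2l* were also II, with the nearest WT LAD 1090 and 1047 kb away and the nearest KO LAD 175.7 and 212.1 kb away.

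Of the 51 transcription starts, 33 were in LADs of both genotypes, 3 in a WT LAD alone (*Klrb1*, *Clec12a* and *Clec12b*), 1 in a KO LAD alone (*Clec9a*) and 14 in neither. Taking instead the start of the transcript with the most exonic bases, a choice made after the data were seen, moved *Clec12a* alone and gave 34 in both and 2 in a WT LAD alone. Over all protein-coding genes the shares were 20.1% for both, 2.62% for WT alone and 12.7% for KO alone. The whole span was in LADs of both genotypes for 29 of the lectin genes, against 15.7% of all protein-coding genes. Counted over bases, the joined spans of the lectin genes were 81.0% within LADs in WT and 78.3% in KO. For all protein-coding genes together the same shares were 38.65% and 42.6%, and for the other genes of chromosome 6 they were 40.1% and 44.85%. The share in KO minus that in WT was thus -2.72 percentage points for the lectin genes and 3.92 for all genes. Spans wholly in WT LADs, 33 of 51 lectin genes against 4423 of 22367 genes, could not gain cover in KO. Among the subfamilies, the share was 36.0% in WT and 15.4% in KO for the *Klrb* genes, a difference that lay wholly in *Klrb1*, and 69.7% and 56.1% for the dectin-1 group. For the other *Klr* genes it was 73.3% and 80.3%, a difference that lay wholly in *Klrg1*, and for the *Clec2* genes 48.1% and 53.0%.

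Genes near or like these were set beside them. Inside the *Klrd1* block, 12 protein-coding genes carry other symbols, of which 9 were PP, 2 II and 1 IP. The symbol alone does not place a gene outside the lectin-like family. *Cd69*, an activation marker of lymphocytes, and *Olr1*, both between members of the set, were wholly in LADs of both genotypes, and *Gabarapl1*, an autophagy gene, was in none. The 33 bitter taste receptor genes (*Tas2r*) of chromosome 6, most of which lie beyond the complex on its telomeric side, were 29 PP and 4 PI. LADs held 98.0% of their joined spans in WT and 92.1% in KO. On other chromosomes 9 genes match the same symbols, of which 5 were II, 3 PP (*Clec14a*, *Clec3a* and *Clec4g*) and 1 IP. The IP gene, *Klraq1*, shares the letters of the symbol and is not a lectin gene.

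The sequence of the gene spans was described beside their class. The median GC share was 38.4% in the 33 PP genes and 42.8% in the 10 II genes, against 41.4% over chromosome 6. The ranges overlapped, at 34.6% to 42.75% in PP genes and 39.4% to 50.6% in II genes. Inside the *Klrd1* block, II genes ran from 39.4% (*Clec2e*) to 44.4% (*Clec2j*). *Klrg2*, *Clec2l* and *Clec4f*, the II genes outside the complex, had 50.6%, 50.2% and 48.6%. The CD94 and NKG2 genes had the lowest median, at 35.7%. GATC sites, which set how many fragments report on a gene, had a median of 2.43 per kb in PP genes, 2.48 in II genes and 2.49 over chromosome 6. *Klrk1* had the fewest, at 1.55 per kb, and *Clec4a4* the most, at 3.47. The part of base composition in the classes was not tested.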

How the data were processed

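DamID lists of 4 libraries, LaminB1-Dam and Dam for WT and KO, were used. The authors mapped reads to mm9 (BWA is named in the submitters' processing notes), took the log2 ratio of LaminB1-Dam to Dam per *DpnI* fragment and segmented it with DNAcopy at default settings. They deposited 2 LAD lists and 2 DR lists of positions, without signal, score or read count, so depth per region is unknown and no interval could be given. Repeating the subtraction with a 10 kb minimum returned all 7787 and all 8208 deposited DRs.

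Genes came from the GENCODE annotation of NCBIM37, the assembly of mm9, and exons from 1 protein-coding transcript per gene, that of greatest exonic length. The lists were read as half-open intervals, and printed region positions are 1-based. Python 3.11.15, numpy 2.4.6, pysam 0.24.0, samtools 1.23.1, numba 0.67.0 and matplotlib 3.10.9 were used. Interval steps were tested on simulated data, with 0 errors in 1000 covered spans, 1000 classes, 424 subtracted and 231 joined regions. Words of 50 bases were looked up on both strands, and every 500th word of chromosome 6 gave the background.

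Alternatives changed the overlap, the part of the gene, the minimum DR and LAD lengths and the joining of LADs. No test was made. The genes, subfamilies and alternatives were chosen with earlier results of these data known. The text names genes with a DR, genes whose start changed state, the highest and lowest shares of each subfamily, and 12 genes picked by function. *Klrb1-ps1*, other genes at 0% or 100% and neighbouring genes were named after their values were seen.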

Additional observations from a re-analysis of the deposited data

How the results depend on the processing

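The number of PP genes was 29 to 38 under the other rules for DR overlap, with some genes exchanged, and every gene kept its class when at least 10% of the span was asked for. At least 50% of the span left 1 IP and 0 AMB genes (7.54% and 0% of all protein-coding genes). The transcription start alone gave 33 PP genes, without *Klrg1* and *Clec7a* and with *Clec2i* and *Clec1a*, and 1 IP and 0 AMB genes (12% and 0% of all). With the 100 kb centered on each gene, 36 of 51 genes kept their class, and there were 5 PI, 4 IP, 3 II and 8 AMB genes, against 9.71%, 27.1%, 42.2% and 6.06% of all genes. Counting LAD differences of any length gave 5 PI genes (6% of all), with *Klra4* and *Clec7a* added. Under that rule *Klrg1* went from PP to IP and *Clec2g* from PP to AMB. DRs of at least 20 kb left 1 PI gene, *Klrb1*, and 0 IP and 0 AMB genes, against 3.25%, 11.1% and 0.809% of all. With LADs merged over gaps up to 50 kb there were 4 WT and 5 KO LADs over the *Klrd1* block, since fewer gaps are then counted. Of 51 values recomputed, the 37 others, shares in LADs included, stayed within a factor of 1.5. Apart from that at *Klrb1*, the DRs at these genes are 10 to 16 kb long, near the minimum, and no replicate library bears on them. Replicates could not be left out, as there is 1 library pair per genotype.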
